A study of Mus musculus with 12 samples.

Results

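The genes described here are 34 genes of the ATF4 stress response and of amino acid supply, given as a list of symbols, out of 54356 genes with a value in RNA of mouse primary neural stem cells. They are transcription factors and feedback regulators of the response, enzymes that make amino acids and one-carbon units, amino acid transporters, and enzymes that charge tRNAs. All 34 passed the filter on low counts, as 16043 genes did. The study asked which genes differ in cells deficient in Chd5, a chromatin remodeller of the CHD family, when these cells begin to differentiate. There were 4 groups of 3 libraries: cells labelled wild type and cells labelled Chd5-/-, each collected 3 h and 48 h after the change to differentiation medium. All groups shared the same culture steps: growth with EGF and FGF, and then neurobasal medium with B-27 and glutamine to start neural differentiation. The labels give no strain, age, deleted part of Chd5, or origin of the replicates, so the p-values measure only the spread between these libraries, which may be technical.

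Cells that run short of amino acids, accumulate unfolded protein in the endoplasmic reticulum or lack haem phosphorylate the translation factor eIF2. General translation then falls, while translation of Atf4 mRNA rises through its upstream open reading frames. ATF4 pairs with other bZIP proteins, binds composite elements in the promoters of its targets, and raises genes for amino acid synthesis, uptake and tRNA charging. ATF4 is therefore controlled to a large part by translation, which mRNA levels do not show.

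Each library was sequenced to a depth of 14.11 to 18.71 M estimated reads. Chd5 mRNA was scarce, and at 3 h no Chd5-/- library was below a wild-type one: the values were 3.54, 3.93 and 4.66 CPM in wild type and 5.25, 6.31 and 7.06 CPM in Chd5-/-. At 48 h it had 6.59, 7.15 and 5.28 CPM in wild type and 5.70, 3.34 and 2.96 CPM in Chd5-/-, and neither difference passed (adjusted p = 0.257 and 0.467). CPM are counts per M reads of the scaled library size. Neural stem cell markers were present, with Nes at 322 to 1890 CPM and Fabp7 at 526 to 3650 CPM, except Prom1, which stayed at or below 0.674 CPM. At 3 h 12 such markers summed to 8400, 5990 and 5920 CPM in wild type and 9390, 9050 and 9090 CPM in Chd5-/-. Of the 11 tested, 5 were higher and 2 lower in every Chd5-/- library than in every wild-type one. Of all genes tested, 23.9% and 21.1% were. The summed level of 6 microglia markers was at most 2.49 CPM, and that of 5 endothelial markers at most 4.41 CPM. The summed level of 8 fibroblast and smooth muscle markers at 3 h was 13.1 to 15 CPM in wild type and 573 to 606 CPM in Chd5-/-. In Chd5-/- nearly all of it was Acta2. Tagln was also higher (0.166 to 0.81 against 5.86 to 6.48 CPM). Col1a1 (1.99 to 2.55 against 0.379 to 1.06 CPM) and Col3a1 (3.04 to 8.66 against at most 0.279 CPM) were lower. The summed level of 8 neuron markers at 3 h was 238 to 645 CPM in wild type and 1200 to 1310 CPM in Chd5-/-. Among them Map2 was higher in Chd5-/- (114 to 490 against 1090 to 1210 CPM) and Tubb3 lower (119 to 157 against 89.9 to 98.4 CPM). The summed level of 7 astrocyte markers at 3 h was 865, 481 and 461 CPM in wild type and 623, 613 and 644 CPM in Chd5-/-. That of 8 oligodendrocyte lineage markers was 934, 654 and 648 CPM against 967, 879 and 942 CPM. Both sums overlapped between the genotypes through wild-type replicate 1. Single markers differed in direction. Of the 7 astrocyte markers, 1 was higher and 3 lower in every Chd5-/- library, and of 6 oligodendrocyte lineage markers tested, 1 and 3. The part of these marker differences in the results below was not tested. In bulk RNA, fewer cells of a type and less RNA per cell cannot be told apart.

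The libraries of 3 groups were uneven, with 1 of the 3 unlike its group. In the wild-type group at 3 h, replicate 1 had a read-weighted transcript length of 1805 bases, against 3049 and 3077 bases in replicates 2 and 3, and 15.5% of its reads lay on 81 ribosomal protein genes, against 4.20% and 4.05%. At 48 h, replicate 2 of each genotype kept high levels of mitosis genes: 20 such genes summed to 3510 CPM in wild type, against 226 and 234 CPM, and to 3190 CPM in Chd5-/-, against 224 and 229 CPM. Replicate 2 at 48 h also differed in cell type markers. Astrocyte markers summed to 558 CPM in wild type, against 2540 and 2540 CPM, and to 1410 CPM in Chd5-/-, against 3840 and 3830 CPM. Oligodendrocyte lineage markers went the other way, with 2130 CPM against 1460 and 1420 CPM, and 2090 CPM against 1280 and 1240 CPM. The main counts below are given with all 12 libraries and again without the 3 libraries that stood apart. Without them 9 libraries remain, and the spread is estimated from groups of 2 or 3 libraries that lie close together.

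Promoter sequences were searched for the letters of an ATF4 site, and stretches around the matches found are shown here. Windows of 300 bases, from 250 before to 50 after the start of each gene, came from RefSeq (GRCm38.p6), and 28 of the 34 genes had one. Aldh1l2, Cth, Nars, Slc1a5, Slc7a3 and Slc7a5 had none. The core of the C/EBP-ATF response element, the composite site bound by ATF4 dimers, was searched as TGATGNAA on both strands. It was found in 10 of the 28 genes (35.7%) and in 4.51% of 27025 gene symbols with a window. The match of the tenth gene, Trib3 (TGATGTAA), lies after the RefSeq start and is not printed, and that of Slc1a4 spans the RefSeq start. This start can differ from that of the annotation used for the counts. The stretches printed for Atf3, Nupr1, Vldlr and Asns lie inside the gene as annotated there. The stricter form TGATGCAA, whose matches all belong to the first set too, was found in 7 of the 28 (25.0%) and in 1.03% of all symbols. The 34 genes were listed as genes of the ATF4 response and amino acid supply, so a share above that of all symbols may follow from that choice. A match is a description of letters, not a site shown to be bound, and its part in the levels below was not tested.

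Stretches around the matches are printed 5′ to 3′ on the strand of the gene, with up to 20 bases on either side and the matched letters in capitals (TTGCATCA and TTTCATCA are the same core read on the opposite strand). Slc7a11 is shown first because it carried the clearest genotype difference, and its window held 2 matches facing each other. They lie at chr3:50443633-50443699 (minus strand), and the first begins 66 bases before the start. The others are Chac1 (chr2:119351029-119351076, plus strand), Atf3 (chr1:191183416-191183463, minus), Vldlr (chr19:27216800-27216847, plus), Slc1a4 (chr11:20332710-20332737, minus), Pycr1 (chr11:120643824-120643871, minus), Nupr1 (chr7:126625553-126625600, minus), Asns (chr6:7693210-7693252, minus) and Gars (chr6:55037951-55037998, plus).
Slc7a11: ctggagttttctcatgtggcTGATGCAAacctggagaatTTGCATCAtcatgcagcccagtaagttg
Chac1: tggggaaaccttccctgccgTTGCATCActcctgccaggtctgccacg
Atf3: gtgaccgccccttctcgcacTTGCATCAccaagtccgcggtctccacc
Vldlr: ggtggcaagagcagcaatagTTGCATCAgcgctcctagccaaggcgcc
Slc1a4: cctccagcgtgcctcctgcgTTGCATCA
Pycr1: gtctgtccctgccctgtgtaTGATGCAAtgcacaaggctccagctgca
Nupr1: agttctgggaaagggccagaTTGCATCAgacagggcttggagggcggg
Asns: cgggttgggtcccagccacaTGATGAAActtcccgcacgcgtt
Gars: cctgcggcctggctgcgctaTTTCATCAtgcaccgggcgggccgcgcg

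Compared per transcript length (TPM, group means), Slc3a2, the heavy chain shared by several amino acid exchangers, ranked first of the 34 genes in every group, with 439 ± 292 TPM (SD, n = 3) in wild type at 3 h and 1030 ± 57.2 TPM in Chd5-/- at 3 h. Phgdh and Psat1, the first and second enzymes of serine synthesis, followed it in every group, in either order, and Atf4 took rank 4 to 7. The last rank fell to Cbs in wild type and to Slc7a3 in Chd5-/- at 3 h, and to Chac1 in wild type and to Atf3 in Chd5-/- at 48 h. The SDs of wild type at 3 h and of both groups at 48 h are large, with 1 library unlike the others, so ranks close to each other do not differ beyond the spread.

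**Figure D1:**
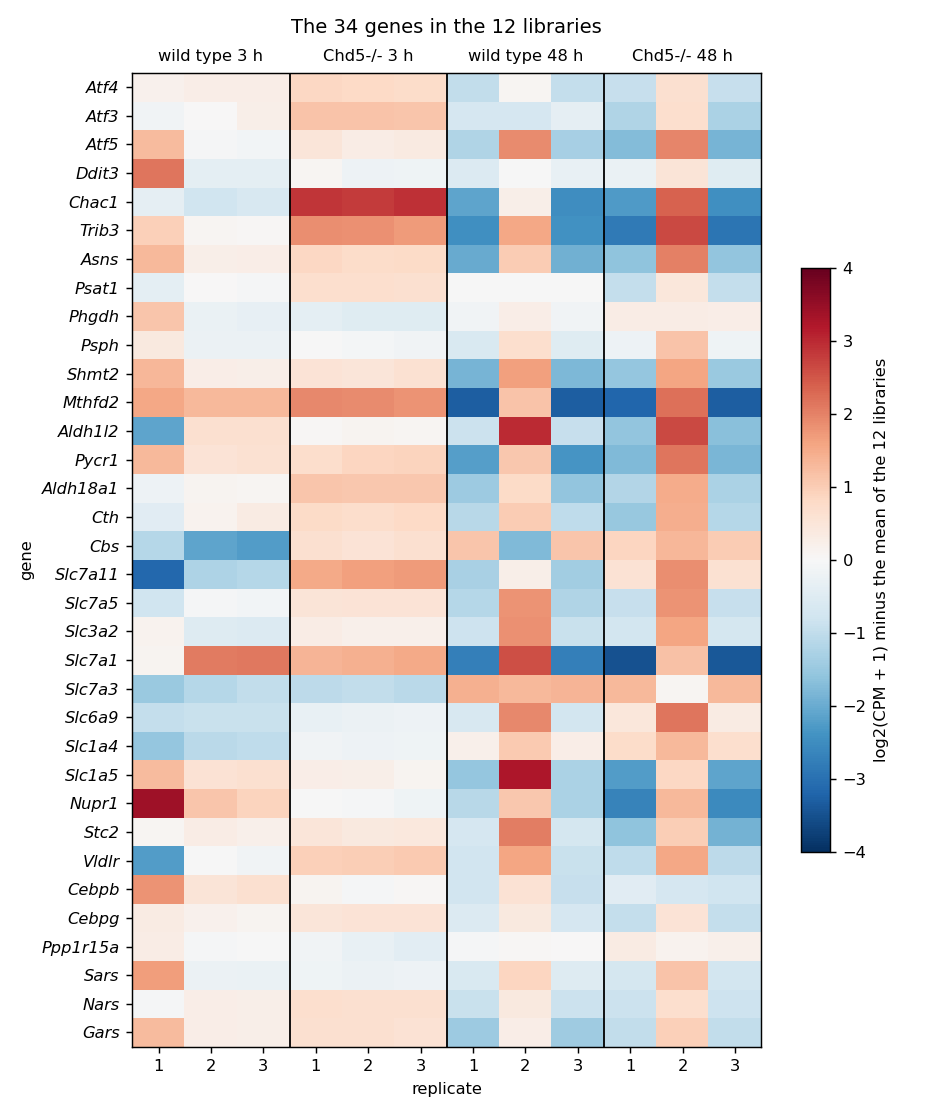
Each row is 1 of the 34 genes and each column 1 of the 12 libraries; the colour gives log2(CPM + 1) minus the gene's mean over the 12 libraries. Replicate 2 at 48 h is the highest library of its group for 31 of 34 genes in each genotype, and many genes are also higher in Chd5-/- than in wild type at 3 h.

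The first question is which of these genes differed between the genotypes 3 h after differentiation began. With all 12 libraries, 2 of the 34 genes passed, Slc7a11 and Cbs, both higher in Chd5-/-, where 6.71% of all genes tested passed (3.24% higher and 3.48% lower). The test was edgeR's quasi-likelihood F test with Benjamini-Hochberg adjustment over all genes, and a gene passed at an adjusted p under 0.05. The share of 2 in 34 is near that background. Another 6 of the 34 had an unadjusted p under 0.05 only, which makes 8 in all. The median log2 difference of the 34 genes was 0.38, against -0.02 for all genes tested.

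The libraries of the 2 genotypes did not overlap at 3 h in 23 of the 34 genes. All 3 Chd5-/- libraries were higher in 18 genes, as in 23.9% of all genes tested, and all 3 were lower in 5 genes, as in 21.1%. The 5 lower genes were Slc1a5, Nupr1, Ppp1r15a, Phgdh and Cebpb. The other 11 overlapped. In the fit without the 3 libraries, 25 of the 34 genes passed higher and 7 lower, where 27.2% of all genes passed higher and 25.3% lower, and the median was 0.44 against 0.00.

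Other ways to treat the replicates moved the count. With only the 6 libraries of 3 h in the fit, 6 genes passed, all higher (Slc7a11, Cbs, Chac1, Slc1a4, Aldh18a1 and Atf3), where 6.76% of 14655 genes did. With the replicate number as a block, none of the 33 genes tested passed, nor did any other gene (0.0% of 14655), and 13 of the 33 had an unadjusted p under 0.05. limma-voom called 1 gene (Slc7a11) and DESeq2 called 3 (Slc7a11, Cbs and Slc1a4) of the 15 for which it gave an adjusted p.

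**Figure D2:**
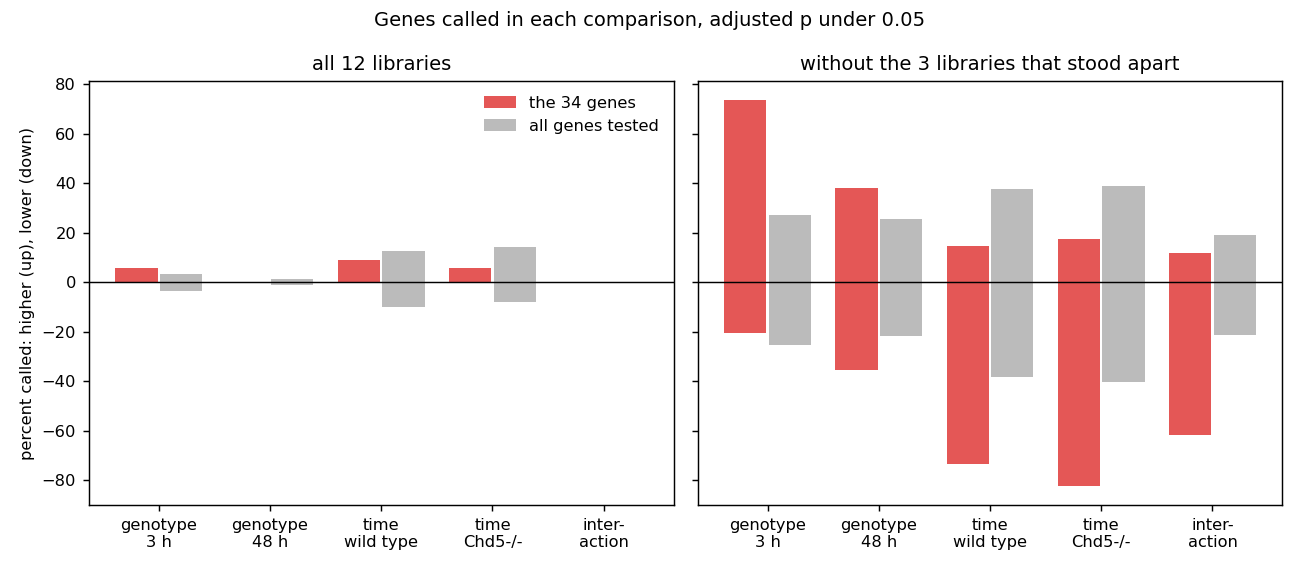
Bars give the percentage of the 34 genes (red) and of all genes tested (grey) that passed at an adjusted p under 0.05, upward for higher and downward for lower, in the 5 comparisons. With all 12 libraries the bars of the 34 genes stay small, and without the 3 libraries that stood apart they exceed the grey bars upward for the genotypes at 3 h, in both directions for the genotypes at 48 h, and downward for time in both genotypes and for the interaction.

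Slc7a11 encodes the light chain of the cystine/glutamate exchanger, which brings in cystine for glutathione synthesis, and it lies at chr3:49892526-50443614 (GRCm38). At 3 h it had 4.66, 20.3 and 21.6 CPM in wild type and 141, 156 and 163 CPM in Chd5-/-. Every Chd5-/- library was far above every wild-type library, and the lowest wild-type value belonged to replicate 1. The log2 difference was 3.30 ± 0.66 (SE), a 9.84-fold higher level (adjusted p = 0.0137). It was 2.87 ± 0.07 without the 3 libraries. The gene still passed when any 1 of the 12 libraries was left out, with a highest adjusted p of 0.0480, but not with an offset for transcript length (adjusted p = 0.0516) or with the replicate block (3.53 ± 0.55, adjusted p = 0.101).

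Cbs, cystathionine beta-synthase, which starts the conversion of homocysteine to cysteine, lies at chr17:31608894-31637238. At 3 h it had 3.85, 1.48 and 1.28 CPM in wild type and 15.8, 14.5 and 15.7 CPM in Chd5-/-, from 23.2 to 38.3 reads a library in wild type and 229 to 282 in Chd5-/-. The groups did not overlap, and the log2 difference was 2.83 ± 0.72 (adjusted p = 0.0417). The reads also lay on different transcripts. In wild type at 3 h, all the reads given to Cbs (38.3, 25.6 and 23.2) were on the longest transcript, Cbs-211 of 6226 bases. In Chd5-/- that transcript had 36.3, 33.9 and 61.7 reads, and Cbs-202 of 2403 bases had 122, 85.7 and 150 reads against 0 in every wild-type library. With an offset for transcript length the log2 difference was 7.18 ± 1.24 (adjusted p = 0.00791). Cbs is the less firm of the 2 calls. It passed when wild-type replicate 1 at 3 h or wild-type replicate 2 at 48 h was left out (adjusted p = 0.0306 and 0.00197), and it missed the threshold when any of the other 10 libraries was left out (up to 0.118), with the block (0.101) and in limma-voom (0.0630).

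Cth, the next enzyme of the same route, had 4.25, 6.95 and 8.05 CPM in wild type and 11.3, 10.9 and 11.6 CPM in Chd5-/-. The groups did not overlap, but the log2 difference of 0.81 ± 0.89 did not pass (adjusted p = 0.613).

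Chac1, an enzyme that degrades glutathione and a target of ATF4, lies at chr2:119351229-119354381. It had 4.66, 3.19 and 3.61 CPM in wild type at 3 h and 51.1, 49.4 and 53.7 CPM in Chd5-/-. Every Chd5-/- library was far above every wild-type library in the plot of levels, yet the gene did not pass with all 12 libraries (3.75 ± 1.57, adjusted p = 0.180). The spread that this fit shares among the groups includes 48 h, where the 3 libraries of Chd5-/- had 0.495, 36.2 and 0.315 CPM. With only the 3 h libraries the difference was 3.73 ± 0.22 (adjusted p = 0.00155), with Chd5-/- replicate 2 at 48 h left out it was 3.77 (0.0394), and with the block it was 3.74 ± 0.26 (0.0556).

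**Figure D3:**
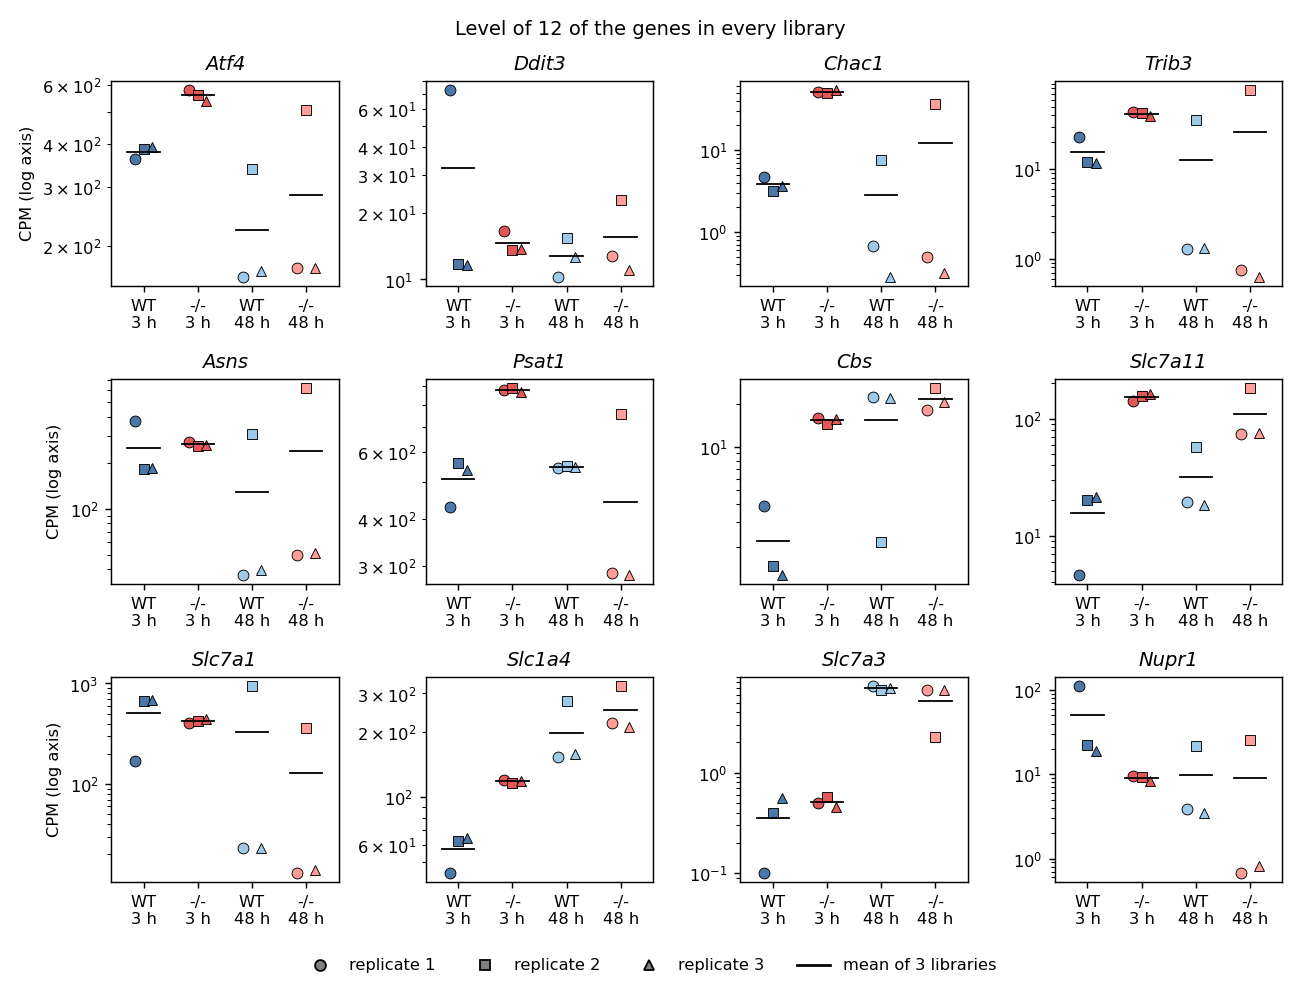
Level of 12 of the genes in CPM on a log axis, with 1 point per library, a marker shape per replicate and a line at the mean of 3 libraries. Slc7a11, Cbs and Chac1 lie apart between the genotypes at 3 h, Slc1a4 and Slc7a3 are higher at 48 h than at 3 h, and the square of replicate 2 leaves its group at 48 h in most panels.

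Among the transcription factors, Atf4 (chr15:80255184-80257541) had 362, 388 and 392 CPM in wild type and 579, 560 and 538 CPM in Chd5-/- at 3 h. The groups did not overlap, and the log2 difference of 0.55 ± 0.43 did not pass (adjusted p = 0.465). It was 0.52 ± 0.03 without the 3 libraries (adjusted p = 3.21e-08). Atf3, a bZIP factor induced by ATF4, had 5.37, 6.09 and 7.21 CPM against 14.7, 14.6 and 14.2 CPM, again without overlap (1.22 ± 0.54, adjusted p = 0.207). Cebpg, a partner of ATF4 in dimers, was 60.1 to 68.8 CPM in wild type and 77.1 to 81.9 CPM in Chd5-/-. Cebpb went the other way, with 17.7, 6.72 and 7.33 CPM against 4.81, 4.17 and 4.55 CPM, and it did not pass (-1.22 ± 0.53, adjusted p = 0.194).

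For several genes the sign of the 3 h difference, or most of its size, rested on wild-type replicate 1. Ddit3, which encodes CHOP, a factor tied to cell death under lasting stress, had 72.7, 11.8 and 11.7 CPM in wild type and 16.6, 13.6 and 13.8 CPM in Chd5-/-. The log2 difference was -1.12 ± 0.63 (adjusted p = 0.305) with all libraries and 0.33 ± 0.12 without the 3 (adjusted p = 0.0306). Atf5 had 156, 62.1 and 60.0 CPM against 79.4 to 91.4 CPM, so that replicate 1 was above and the other 2 wild-type libraries below every Chd5-/- library. Nupr1, a stress-induced chromatin protein, had 111, 22.1 and 18.7 CPM against 9.56, 9.41 and 8.42 CPM. It was lower in all 3 Chd5-/- libraries, by a log2 difference of -2.47 ± 1.29 with all libraries (adjusted p = 0.271) and -1.16 ± 0.10 without the 3.

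The feedback regulators differed in direction. Trib3, a pseudokinase that restrains ATF4, had 22.9, 12 and 11.8 CPM in wild type and 43.8, 42.7 and 39.3 CPM in Chd5-/- (1.43 ± 1.59, adjusted p = 0.613). Ppp1r15a, the GADD34 subunit that directs a phosphatase to eIF2, was slightly lower in Chd5-/-, with 31.9, 24.8 and 25.3 CPM against 23.1, 20.6 and 19.1 CPM (-0.38 ± 0.19, adjusted p = 0.249). Neither passed with all 12 libraries, and without the 3 libraries Trib3 was higher (1.82 ± 0.07, adjusted p = 2.95e-10) and Ppp1r15a lower (-0.26 ± 0.08, adjusted p = 0.0150). Vldlr, a lipoprotein receptor induced under stress, had 13.6, 66.3 and 61.6 CPM against 131, 134 and 140 CPM (1.51 ± 0.88, adjusted p = 0.320). The secreted glycoprotein gene Stc2 differed little, 17.0 to 19.9 CPM against 21.4 to 22.9 CPM.

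In asparagine and serine synthesis the genes did not share a direction. Asns, asparagine synthetase and a classical ATF4 target, had 378, 183 and 186 CPM in wild type and 273, 258 and 262 CPM in Chd5-/-. The Chd5-/- libraries lay between wild-type replicate 1 and the other 2, and the log2 difference was 0.09 ± 1.01 (adjusted p = 0.966), or 0.52 ± 0.03 without the 3 libraries. Psat1 had 429, 561 and 539 CPM against 879, 886 and 865 CPM, with no overlap (0.78 ± 0.35, adjusted p = 0.208). Phgdh had 1240, 481 and 461 CPM against 436, 414 and 409 CPM, lower in all 3 Chd5-/- libraries, though by a log2 difference of only -0.16 ± 0.03 without the 3 libraries. Psph, which completes serine synthesis, was 37.1 to 58.3 CPM in wild type and 39.5 to 43.3 CPM in Chd5-/-, and the groups overlapped.

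Of the mitochondrial folate enzymes, which turn serine into one-carbon units, Mthfd2 had 175, 147 and 148 CPM in wild type and 226, 221 and 210 CPM in Chd5-/-, with no overlap (0.48 ± 1.44, adjusted p = 0.865). Shmt2 had 534, 258 and 249 CPM against 302 to 328 CPM, and Aldh1l2 had 9.11, 66.3 and 67.3 CPM against 43.9, 46.2 and 44.6 CPM. In both, replicate 1 lay on the far side of the Chd5-/- libraries from replicates 2 and 3. Without the 3 libraries, Aldh1l2 was lower in Chd5-/- (-0.57 ± 0.05, adjusted p = 2.28e-07) and Shmt2 higher (0.31 ± 0.04, adjusted p = 1.85e-05). For proline synthesis, Aldh18a1 had 123, 153 and 150 CPM against 311, 306 and 305 CPM, with no overlap (1.11 ± 0.78, adjusted p = 0.412, and 0.0164 with only the 3 h libraries). Pycr1, the last enzyme of that route, was 20.6 to 35.6 CPM against 23.2 to 26.3 CPM and overlapped.

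Among the transporters, Slc1a4, a carrier of alanine, serine and cysteine, had 44.6, 62.6 and 64.5 CPM in wild type at 3 h and 119, 116 and 118 CPM in Chd5-/-. The groups did not overlap, and the log2 difference of 1.04 ± 0.29 missed the threshold (adjusted p = 0.0580). It passed with only the 3 h libraries (0.0337) and in DESeq2 (0.0116). Slc1a5, its relative that carries glutamine, differed in the other direction, with 61.2, 38.1 and 39.4 CPM against 30.1, 29.7 and 27.0 CPM (-0.68 ± 1.19, adjusted p = 0.762). Slc7a5 and Slc3a2, the chains of the leucine exchanger LAT1, were both higher in all Chd5-/- libraries: Slc7a5 had 228, 386 and 371 CPM against 568, 579 and 579 CPM, and Slc3a2 had 377, 237 and 230 CPM against 414, 389 and 388 CPM. Neither passed with all libraries (adjusted p = 0.608 and 0.728).

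Slc7a1, the main carrier of arginine and lysine in many cells, had 171, 665 and 686 CPM in wild type and 405, 424 and 448 CPM in Chd5-/-. Its difference was -0.25 ± 1.46 (adjusted p = 0.931) with all libraries and -0.66 ± 0.04 (adjusted p = 1.26e-08) without the 3. The glycine transporter gene Slc6a9 had 37.2, 39.6 and 39.3 CPM against 59.1, 62.8 and 63.1 CPM (0.67 ± 0.69, adjusted p = 0.584). Here replicate 1 did not stand apart, and every Chd5-/- library was above every wild-type library. Slc7a3 was nearly absent at 3 h, with 1, 7 and 10 reads a library in wild type and 9, 9 and 8 reads in Chd5-/-.

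The tRNA synthetase genes gave 3 patterns. Nars, for asparagine, had 222, 271 and 266 CPM in wild type and 365, 352 and 351 CPM in Chd5-/-, with no overlap (0.49 ± 0.45, adjusted p = 0.541). Gars, for glycine, had 581, 293 and 282 CPM against 360 to 377 CPM, between replicate 1 and the others. Sars, for serine, had 642, 170 and 166 CPM against 175, 170 and 171 CPM, close to equal once replicate 1 was set aside (0.03 ± 0.04 without the 3 libraries, adjusted p = 0.486).

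At 48 h the question is whether the genotype difference was still present. With all 12 libraries, none of the 34 genes passed, where 2.74% of all genes tested did. In edgeR 1 of the 34 (Slc7a11) had an unadjusted p under 0.05, and limma-voom and DESeq2 also called 0. The groups did not overlap in 2 genes, Slc7a11 and Ppp1r15a, both higher in Chd5-/- (as in 12.3% of all genes tested), and in no gene with Chd5-/- lower (10.9%). The median log2 difference was 0.24, against -0.02 for all genes.

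Slc7a11 had 19.4, 57.5 and 18.2 CPM in wild type at 48 h and 73.6, 181 and 75.1 CPM in Chd5-/-. Each Chd5-/- library was above every wild-type library, and replicate 2 was the highest in both genotypes. The log2 difference of 1.79 ± 0.62 did not pass (adjusted p = 0.218), while it was 2.00 ± 0.08 without the 3 libraries (adjusted p = 7.68e-10). With the replicate number as a block it was 1.86 ± 0.11 and passed (adjusted p = 0.00702). In that blocked fit, 4 of the 34 genes passed, where 8.82% of all genes did: Pycr1 was also higher (0.86 ± 0.16, adjusted p = 0.0490), and Stc2 (-1.16 ± 0.13, adjusted p = 0.0168) and Slc7a1 (-0.99 ± 0.17, adjusted p = 0.0368) were lower.

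Pycr1 had 2.26, 30.6 and 1.87 CPM in wild type at 48 h and 3.41, 65.0 and 3.22 CPM in Chd5-/-. Stc2 had 9.71, 69.8 and 9.43 CPM against 4.64, 33.0 and 3.66 CPM. Slc7a1 had 23.0, 938 and 23.0 CPM against 13.2, 358 and 14.1 CPM. In all 3 genes the groups overlapped, because replicate 2 was far above the others, but each same-numbered pair gave the same direction.

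When the 3 libraries were omitted, 13 of the 34 genes passed higher and 12 lower at 48 h, where 25.6% of all genes passed higher and 21.6% lower, and the median was 0.05. Psat1, higher in Chd5-/- at 3 h, was then lower: it had 547, 552 and 549 CPM in wild type and 287, 757 and 285 CPM in Chd5-/- (-0.31 ± 0.35 with all libraries, adjusted p = 0.927, and -0.92 ± 0.03 without the 3, adjusted p = 1.96e-10). Slc6a9 was higher, with 47.1, 282 and 44.2 CPM against 101, 327 and 92.5 CPM (1.10 ± 0.06 without the 3 libraries). Atf4 had 162, 339 and 168 CPM against 172, 507 and 172 CPM, and it did not pass with (0.35 ± 0.43, adjusted p = 0.950) or without them (0.07 ± 0.04, adjusted p = 0.164).

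Replicate 2 at 48 h was the highest library of its group for 31 of the 34 genes in wild type and for 31 in Chd5-/- (91.2% in each, against 46.1% and 45.0% of all genes tested). It was at least 2-fold above the next library for 25 genes in wild type (73.5%, against 15.1%) and for 27 in Chd5-/- (79.4%, against 10.6%). The summed level of the 34 genes was 9460 CPM in this wild-type library, against 2590 and 2600 CPM, and 10100 CPM in its Chd5-/- counterpart, against 2770 and 2730 CPM. The 20 mitosis genes were all highest in the same libraries, as given above, and their part in these levels was not tested.

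Within replicate 2 at 48 h, Chac1 and Cbs were higher in Chd5-/-, as at 3 h. This did not hold for Cbs in the other 2 pairs, where Chac1 had too few reads to give a direction. Chac1 had 7.55 CPM in wild type and 36.2 CPM in Chd5-/- in this pair, while the other 2 pairs were at 0.672 and 0.284 CPM against 0.495 and 0.315 CPM. Those values come from 11 and 5 reads in wild type and 8 and 5 reads in Chd5-/-. Cbs had 2.16 CPM against 25.6 CPM in this pair, and 22.3 and 21.9 CPM against 18.2 and 20.6 CPM in the others. Asns, whose genotypes overlapped at 3 h, was higher in Chd5-/- in all 3 pairs at 48 h, with 309 CPM against 618 CPM in pair 2, and 36.9 and 39.4 CPM against 49.6 and 51.1 CPM in the others. A single pair has no replicate, so these are descriptions. Of the 18 genes that were higher in all Chd5-/- libraries at 3 h, 14 were higher in pair 2 at 48 h, 9 in pair 1 and 10 in pair 3 (Chac1 among these 10, with 5 reads in each library). Of the 3837 genes of all kinds that were higher in the same way at 3 h, 64.7% were higher in pair 2, 66.7% in pair 1 and 66.1% in pair 3. Of the 5 genes that were lower in all Chd5-/- libraries at 3 h, 2 were lower in any given pair at 48 h (40.0%). These were not the same genes in every pair, and only 1 of the 5, Slc1a5, was lower in all 3 pairs. Of 3386 such genes of all kinds, 63.9%, 67.0% and 65.7% were lower in pairs 1, 2 and 3.

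**Figure D4:**
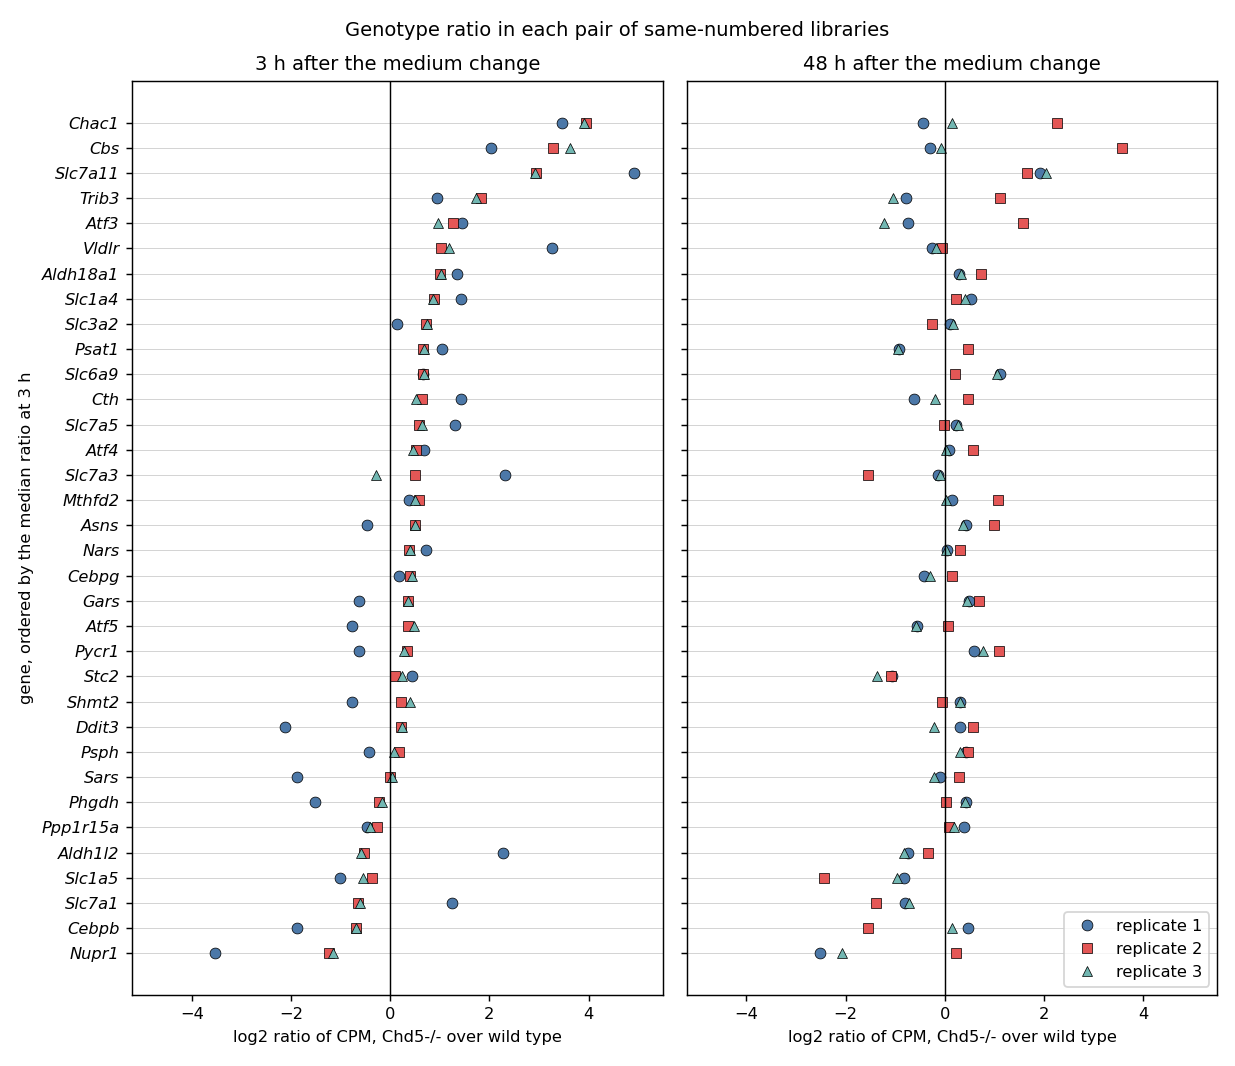
Log2 ratio of Chd5-/- to wild type for each of the 34 genes in each pair of same-numbered libraries, at 3 h and 48 h, ordered by the median ratio at 3 h. At 3 h pair 1 departs from the other pairs for many genes, at 48 h pair 2 does, and Slc7a11 lies between 1.66 and 4.92 in all 6 pairs.

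The time comparisons ask how the genes changed between 3 h and 48 h within a genotype; they share the group means with the genotype comparisons. In wild type, 3 of the 34 genes passed, all higher at 48 h, where 22.9% of all genes tested passed (12.7% higher). In Chd5-/-, 2 passed, both higher, where 22.1% did (14.1% higher). The groups did not overlap in 3 genes higher and 3 lower at 48 h in wild type (20.9% and 16.8% of all genes) and in 6 higher and 6 lower in Chd5-/- (32.2% and 32.4%).

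Slc7a3 (chrX:101079210-101086020), which carries arginine and lysine, rose in both genotypes. It went from 0.101, 0.399 and 0.555 CPM to 7.27, 6.61 and 7.04 CPM in wild type (4.20 ± 0.55, adjusted p = 0.00198). In Chd5-/- it went from 0.503, 0.568 and 0.455 CPM to 6.63, 2.27 and 6.62 CPM (3.33 ± 0.53, adjusted p = 0.00209). Slc7a1, the carrier of the same amino acids, had far lower values at 48 h in replicates 1 and 3 of both genotypes but not in replicate 2, as given above, and did not pass (adjusted p = 0.779 in wild type and 0.445 in Chd5-/-).

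Slc1a4 (chr11:20302180-20332713) also rose in both genotypes. In wild type it went from the values given above to 152, 278 and 158 CPM (1.78 ± 0.29, adjusted p = 0.00435), and in Chd5-/- to 219, 324 and 210 CPM (1.09 ± 0.29, adjusted p = 0.0216). The Chd5-/- call missed the threshold when any 1 of the Chd5-/- libraries except replicate 3 at 48 h was left out (adjusted p = 0.0502 to 0.0842). Cbs rose in wild type alone by this test, to 22.3, 2.16 and 21.9 CPM (2.84 ± 0.72, adjusted p = 0.0206), and replicate 2 stayed among the 3 h values. With the length offset the rise was 6.66 ± 1.21 (adjusted p = 0.00836). That call missed the threshold when wild-type replicate 2 or 3 at 3 h, or 1 or 3 at 48 h, was left out (adjusted p = 0.0554 to 0.0697). In Chd5-/- it had 18.2, 25.6 and 20.6 CPM at 48 h (0.49 ± 0.66, adjusted p = 0.635). With only the 6 wild-type libraries in the fit, none of these calls held, and no gene of any kind passed. The difference between the genotypes in that change did not pass with all 12 libraries (-2.35 ± 0.96, adjusted p = 0.453).

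Most of the 34 genes were lower at 48 h once the 3 libraries were omitted. In wild type 25 passed lower and 5 higher, where 38.4% of all genes passed lower and 37.6% higher, and the median log2 change was -1.16 against 0.02 for all genes. In Chd5-/- 28 passed lower and 6 higher, where 40.1% and 38.9% of all genes did, and the median was -1.69. The largest falls in Chd5-/- in that fit were those of Chac1 (-6.99 ± 0.17), Trib3 (-5.95 ± 0.13), Mthfd2 (-5.38 ± 0.06) and Slc7a1 (-5.00 ± 0.06). Mthfd2 had 5.07, 131 and 5.06 CPM in wild type at 48 h and 5.64, 274 and 5.11 CPM in Chd5-/-, and Trib3 had 1.28, 35.3 and 1.31 CPM and 0.743, 76.2 and 0.631 CPM. With all 12 libraries neither gene passed in either genotype. The 6 genes higher at 48 h in Chd5-/- in that fit were Slc7a3, Slc1a4, Phgdh, Slc6a9, Ppp1r15a and Cbs.

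The genotype by time interaction asks whether the genotype difference itself changed between the times. None of the 34 genes passed with all 12 libraries, where 0.231% of all genes tested did. In edgeR 2 of the 34 had an unadjusted p under 0.05, and limma-voom and DESeq2 called 0. Without the 3 libraries 21 passed lower, that is, with a smaller or more negative difference at 48 h, and 4 higher, where 21.1% and 19.3% of all genes did. Among them were Chac1 (-4.11 ± 0.53), Cbs (-3.64 ± 0.16), Psat1 (-1.60 ± 0.04) and Slc7a11 (-0.87 ± 0.12).

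Other genes of the same pathways were counted by list, chosen with earlier results of these data known. Of 14 other ATF4 targets, 3 were higher and none lower in Chd5-/- at 3 h, where 3.24% of all genes were higher and 3.48% lower, and 9 and 2 without the 3 libraries, where 27.2% and 25.3% of all genes were. With the replicate block no gene of any list passed at 3 h. One of the 3 was Gdf15, a secreted stress hormone, with 0.405, 0.0569 and 0.111 CPM in wild type and 15.8, 12.5 and 14.1 CPM in Chd5-/- (6.35 ± 1.24, adjusted p = 0.0124). Another was Tnfrsf10b, a death receptor, with 0.203, 0.569 and 0.888 CPM against 3.97, 5.05 and 5.12 CPM (3.02 ± 0.47, adjusted p = 0.00339). At 48 h none of the 14 passed in edgeR with all 12 libraries (2 had an unadjusted p under 0.05) or in limma-voom, 2 were higher in DESeq2 and 1 with the block, and 4 were higher and 3 lower without the 3 libraries, where 25.6% and 21.6% of all genes were.

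The lists that follow are to be read against the same shares of all genes. Upstream of Atf4, none of the 13 genes for eIF2 kinases, eIF2 subunits, exchange factors and the phosphatase passed at 3 h or 48 h, and 0 had an unadjusted p under 0.05 at either time. Without the 3 libraries, 5 were higher and 3 lower at 3 h, and 2 were higher and 3 lower at 48 h. None of the 19 genes of the endoplasmic reticulum chaperone and ATF6 or XBP1 branches passed either, with 0 at an unadjusted p under 0.05. At 48 h with all 12 libraries, 1 of these 19 had a log2 difference above 0, and their median was -0.5, against -0.02 for all genes. Their summed level in replicate 2 at 48 h was 13500 CPM in wild type and 4730 CPM in Chd5-/-. In replicates 1 and 3 it was 3020 and 3120 CPM against 3660 and 3670 CPM. Without the 3 libraries 9 of the 19 passed higher and 6 lower at 3 h, and 9 and 2 at 48 h. None of the 17 other cytosolic tRNA synthetase genes passed, with 0 at an unadjusted p under 0.05 at either time. With the block 2 of them were higher at 48 h, and without the 3 libraries 11 were higher and 2 lower at 3 h, and 9 and 1 at 48 h. Among those higher at 3 h was Eprs, with 247, 302 and 296 CPM in wild type and 490, 491 and 497 CPM in Chd5-/-. With all 12 libraries it did not pass (0.81 ± 0.41, adjusted p = 0.255). Kars was lower at 3 h, with 593, 214 and 202 CPM against 179, 178 and 182 CPM. It did not pass with all 12 libraries either (-0.90 ± 0.44, adjusted p = 0.236).

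Of 20 other enzymes of serine, glycine, folate, proline and glutamine metabolism, 1 was higher and none lower at 3 h, and 12 and 4 without the 3 libraries. At 48 h 1 was higher and none lower, 3 were higher with the block, and 13 and 4 without the 3 libraries. The gene at 3 h was Amt, of the glycine cleavage system, with 3.85, 3.99 and 4.99 CPM against 9.89, 10.5 and 10.6 CPM (1.27 ± 0.22, adjusted p = 0.00690). Gldc of the same system had 49.7, 100 and 98.6 CPM against 185, 184 and 180 CPM and missed the threshold (1.15 ± 0.31, adjusted p = 0.0533). Of 12 targets of NRF2, a factor that also drives Slc7a11, 1 was higher (Slc7a11 itself) and 1 lower at 3 h, and 4 and 5 without the 3 libraries. At 48 h none was higher and 1 lower, 3 and 1 with the block, and 6 and 4 without the 3 libraries. Of the 16 other amino acid transporters tested, of 19 listed, 2 were higher and 1 lower at 3 h, and 1 was higher and 1 lower at 48 h (1 and 2 with the block). Without the 3 libraries 17 were tested, and 3 were higher and 8 lower at 3 h, and 8 higher and 3 lower at 48 h.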

How the data were processed

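Per the labels, the 12 libraries were prepared from Trizol-extracted RNA with a stranded mRNA kit (TruSeq). The authors quantified transcripts with Salmon, per the submitters' processing notes, and deposited estimated counts and TPM per transcript, per the file headers; version, settings and strand handling are not given in the sources. Here 140137 of 140658 transcripts were matched by name to GENCODE M21 (GRCm38), and the estimated counts were summed per gene and rounded. For Ddit3, which has 2 gene IDs, the one with most reads was used. Atf5, Ddit3, Psph, Aldh1l2, Slc7a5, Slc6a9 and Cebpb overlap an expressed gene on the other strand, so reads could be shared.

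Low genes were removed by filterByExpr (at least 10 reads, total at least 15), and libraries were scaled by TMM and tested in edgeR 4.0.16 (R 4.3.3) with 1 quasi-likelihood fit to all 12 libraries, 1 mean per group and 5 contrasts. Adjusted p-values are Benjamini-Hochberg over the 16043 genes tested; SE is the log2 difference divided by the square root of F. TPM was used only to rank levels between genes. Alternatives were RLE size factors, no filter, a filter of 1 CPM in 3 libraries, a length offset, only the groups compared, a replicate block, 1 library or the 3 libraries left out, limma-voom (limma 3.58.1) and DESeq2 1.42.0. The edgeR script was first tested on simulated data.

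Same-numbered libraries of the 2 genotypes deviated together from their group means (correlations of 0.261, 0.133 and 0.125 at 3 h, and 0.704, 0.788 and 0.705 at 48 h), although replicates 2 and 3 at 3 h, and 1 and 3 at 48 h, correlated as highly with another number (up to 0.136 and 0.717). The labels do not say that the numbers pair the genotypes, and for that reason this check cannot establish it. The main counts are therefore unpaired, the replicate block is an alternative, and blocked values are given where they change a call.

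The 34 genes, the other lists and the alternative without the 3 libraries were chosen with earlier results of these data known. Values in every library are given for genes that passed, for Atf4, Ddit3 and Asns, and for the 12 further members with the smallest p in a genotype contrast without the 3 libraries; those of other members were added where a group of related genes is described.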

Additional observations from a re-analysis of the deposited data

Results flagged for a closer look

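The eIF2 phosphatase subunit gene Ppp1r15a drew attention because the genotypes lay apart in opposite directions at the 2 times. Of all genes tested, 21.1% lay apart with Chd5-/- lower at 3 h and 12.3% with Chd5-/- higher at 48 h. The share with both was not counted. At 3 h the Chd5-/- libraries had 23.1, 20.6 and 19.1 CPM, all below the wild-type libraries at 31.9, 24.8 and 25.3 CPM. At 48 h they had 32.3, 28.5 and 29.6 CPM, all above the wild-type libraries at 24.9, 26.7 and 26.0 CPM. The interaction, which tests the difference between the 2 genotype effects, was 0.60 ± 0.27 (SE, log2 scale) and did not pass with all 12 libraries (adjusted p = 0.492). Without the 3 libraries that stood apart it was 0.55 ± 0.11 (adjusted p = 0.00182), in a fit where 40.4% of all genes passed the interaction.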

How the results depend on the processing

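The number of the 34 genes that passed differed most between the fits with and without the 3 libraries. For the genotypes at 3 h (2 with all 12 libraries) it was 1 with the length offset, 6 with only the groups compared, 32 without the 3 libraries and 1 in limma-voom, and 1 to 5 with 1 library left out (5 without Chd5-/- replicate 2 at 48 h). At 48 h (0) it was 25 without the 3 libraries and 0 with any 1 left out. For time in wild type (3) it was 0 with only the groups compared (0.0% of 14938 genes), 30 without the 3 libraries and 2 to 5 with 1 left out (5 without wild-type replicate 2 at 48 h). For time in Chd5-/- (2) it was 1 with no filter, 6 with only the groups compared (where 53.4% of 14682 genes passed), 34 without the 3 libraries, 5 in limma-voom, 5 in DESeq2, and 1 to 12 with 1 left out (12 without Chd5-/- replicate 2 at 48 h). For the interaction (0) it was 25 without the 3 libraries and 0 to 2 with 1 left out. RLE size factors and the stricter filter kept all 5 counts within 1.5 times.

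With the replicate number as a block, the count was 0 at 3 h and 4 at 48 h for the genotypes. For the time comparisons the samples share only a number (correlations of -0.019 to 0.020), and the blocked counts were 0 in wild type (0.0% of 14938 genes) and 5 in Chd5-/- (42.3% of 14682 genes). The interaction stayed at 0.

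Fold changes that turned sign were all of genes that had not passed with all 12 libraries in that comparison. At 3 h, Asns was -0.12 with the length offset and -0.08 to 0.52 with 1 library left out, Ddit3 was 0.33 without the 3 libraries and -1.51 to 0.33, Slc7a3 was -0.36 with the length offset, Slc7a1 was 0.01 in limma-voom and -0.66 to 0.03, and Aldh1l2 was 0.28 with the block, 0.31 in limma-voom and -0.57 to 0.25. At 48 h, Cbs was -0.17 and Chac1 -0.20 without the 3 libraries. With 1 library left out at 48 h, Atf4 ran from -0.38 to 0.78, Asns from -1.35 to 2.65, Cbs from -0.04 to 0.83, and Chac1 from -2.77 to 4.68. The cause of these shifts was not tested. Genes with few reads, such as Slc7a3 at 3 h, are limited by counting error.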

Other observations

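The amino acid transporters named here, outside the 34 genes, had the smallest p of their list in a genotype contrast. The glutamine carrier gene Slc38a1 was lower in Chd5-/- at 48 h, with 295, 355 and 305 CPM in wild type against 3.28, 4.34 and 2.21 CPM (-6.60 ± 0.42, adjusted p = 4.56e-05). Slc1a1, a glutamate carrier that also takes up cysteine, was higher, with 0.611, 1.21 and 0.398 CPM against 18.9, 7.61 and 18.9 CPM (4.35 ± 0.49, adjusted p = 0.00113). For both genes every library of one genotype lay apart from every library of the other, the replicate 2 libraries included.

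The NRF2 target Nqo1, a quinone reductase gene, was nearly absent in Chd5-/- at 48 h, with 0.310, 0.0668 and 0.126 CPM against 12.8, 7.28 and 12.8 CPM in wild type (-5.95 ± 0.52, adjusted p = 0.000208). Slc7a11, which NRF2 also drives, differed in the other direction. Hmox1, the haem oxygenase gene and another NRF2 target, had 88.3, 76.0 and 84.0 CPM against 55.3, 50.9 and 55.0 CPM, without overlap, and did not pass (0.62 ± 0.19, adjusted p = 0.157).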
